A study of Mus musculus with 20 samples.

Results

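The genes described here are 10 regulators and surface proteins of blood vessel endothelium, taken from the 37273 genes annotated on the assembled chromosomes of the mouse build NCBIM37 (mm9). They are the growth factor receptors Kdr, Flt1 and Flt4, the receptors Tek and Tie1, the surface proteins Pecam1 and Eng, and the ETS transcription factors Erg, Fli1 and Ets1. They were chosen by name, with earlier results of these data known. Each was measured over a window of its gene body plus 5 kb on each side. The 10 windows run from 28.871 kb (Tie1) to 237.425 kb (Erg) and add up to 1108.77 kb. Their median of 117.797 kb is well above the median of 15.384 kb over all genes, so a member has more room for a peak than most genes.

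What was mapped is 5-formylcytosine (5fC), by chemical pull-down and sequencing of DNA from dissected mouse embryos at E11.5. The embryos were WT, or Tdg null littermates from heterozygote intercrosses, homozygous for an allele in which a neomycin cassette replaces the sequence coding for the TDG catalytic domain. There were 4 WT and 4 Tdg null hindbrains, from litters A, O, Q and Z, and the heart, liver and carcass each gave 2 WT and 2 Tdg null libraries. Heart, liver and carcass came from the same 2 WT and 2 Tdg null embryos, so these tissues are not independent of one another. Pair a and pair b name these embryos within each genotype, and no comparison here pairs a WT with a Tdg null embryo of them. The Tdg null liver of pair b, which the study set aside, held 228 peaks in all and is given apart, leaving 19 libraries.

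Endothelial cells line all vessels. In the embryo they are specified and patterned by VEGF ligands acting on the receptors encoded by Kdr, Flt1 and Flt4, while angiopoietins act on Tek with its relative Tie1 and stabilise the new vessels. Eng is a co-receptor for ligands of the TGF-beta family, Pecam1 is an adhesion molecule of endothelial junctions, and Erg, Fli1 and Ets1 bind enhancers of endothelial genes. 5fC arises when TET enzymes oxidise 5-methylcytosine, and TDG excises it, so that it accumulates when TDG is lost. It is an intermediate of active demethylation, but the paper adds that it may also be lost passively in replication or have a role of its own. In bulk tissue, a larger fraction of endothelial cells and more 5fC per cell cannot be told apart. Peaks are not expression, so the tissue labels were not checked against markers.

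The stretches of these windows with peaks in the most libraries show what the pull-down recovered. Each sequence is 300 bases at the centre of a stretch that overlapped peaks of 12 (Flt1, Erg, Fli1, Ets1) or 11 (Tek) of the 19 libraries. The printed bases lay wholly under a peak in 12 libraries for both Erg stretches, 11 for Ets1, 10 for Tek, 9 for Flt1 and 8 for Fli1. All 6 lie in introns, the Fli1 and Tek ones in the first intron, and stretches overlapping exons were left out of the printing. The forward strand of mm9 is given 5′ to 3′, with each CpG in capitals.
Flt1 chr5:148483501-148483800: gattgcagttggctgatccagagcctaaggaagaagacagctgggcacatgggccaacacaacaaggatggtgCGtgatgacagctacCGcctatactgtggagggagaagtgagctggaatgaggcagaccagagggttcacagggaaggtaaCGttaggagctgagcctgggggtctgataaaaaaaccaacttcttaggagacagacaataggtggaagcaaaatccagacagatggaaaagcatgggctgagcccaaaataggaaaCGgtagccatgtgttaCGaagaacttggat
Erg chr16:95589001-95589300: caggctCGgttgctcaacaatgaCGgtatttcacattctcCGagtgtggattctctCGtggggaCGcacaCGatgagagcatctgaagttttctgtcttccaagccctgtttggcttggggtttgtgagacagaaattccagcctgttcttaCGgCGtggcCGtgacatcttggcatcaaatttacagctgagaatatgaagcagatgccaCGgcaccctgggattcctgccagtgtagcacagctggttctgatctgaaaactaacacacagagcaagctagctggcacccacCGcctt
Erg chr16:95598001-95598300: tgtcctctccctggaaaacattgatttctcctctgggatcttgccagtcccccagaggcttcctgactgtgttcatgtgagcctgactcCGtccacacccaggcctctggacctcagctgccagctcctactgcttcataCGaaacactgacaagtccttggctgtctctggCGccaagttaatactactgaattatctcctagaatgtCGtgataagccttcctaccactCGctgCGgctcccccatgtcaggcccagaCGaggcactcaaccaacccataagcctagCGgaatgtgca
Fli1 chr9:32292401-32292700: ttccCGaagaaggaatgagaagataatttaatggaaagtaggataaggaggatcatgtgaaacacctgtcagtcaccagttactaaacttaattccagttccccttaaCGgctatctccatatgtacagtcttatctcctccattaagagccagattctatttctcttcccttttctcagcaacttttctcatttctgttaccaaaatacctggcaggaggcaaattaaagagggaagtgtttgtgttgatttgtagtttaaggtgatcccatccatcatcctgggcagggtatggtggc
Ets1 chr9:32475551-32475850: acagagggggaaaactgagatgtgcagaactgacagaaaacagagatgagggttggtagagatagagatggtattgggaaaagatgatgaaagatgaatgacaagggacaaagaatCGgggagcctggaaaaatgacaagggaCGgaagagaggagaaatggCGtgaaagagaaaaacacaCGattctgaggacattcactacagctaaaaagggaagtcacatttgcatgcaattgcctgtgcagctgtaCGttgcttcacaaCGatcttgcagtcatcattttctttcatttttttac
Tek chr4:94419251-94419550: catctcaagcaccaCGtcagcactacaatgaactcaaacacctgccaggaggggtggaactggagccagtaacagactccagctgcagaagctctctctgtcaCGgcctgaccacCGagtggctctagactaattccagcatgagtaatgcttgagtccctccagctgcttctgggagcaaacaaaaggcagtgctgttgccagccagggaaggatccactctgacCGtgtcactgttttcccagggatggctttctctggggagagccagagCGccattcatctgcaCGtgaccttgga
The 6 sequences differ widely in CpG content. The Erg stretch at chr16:95589001-95589300 holds 11 CpG sites, the other Erg stretch 8, the Tek and Ets1 stretches 6 each, the Flt1 stretch 5 and the Fli1 stretch 2. The first Erg stretch lay under peaks of 6 WT libraries from 5 embryos and 6 Tdg null libraries. The Flt1 stretch overlapped peaks of 6 WT libraries, all of heart, carcass and liver and so from 2 embryos, and 6 Tdg null libraries.

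All 10 windows carried peaks in each of the 9 Tdg null libraries, and far fewer in WT. The share of all genes, or of genes with windows as long, with a peak in all 9 was not computed, so the 10 of 10 is a description only. Of the 1108.77 kb, peaks of the Tdg null hindbrains covered 8.81% (A), 5.29% (O), 8.10% (Q) and 7.51% (Z). The WT hindbrains of the same litters reached 0.0361%, 0.514%, 1.19% and 0.0451%. Every Tdg null hindbrain was thus above every WT one. In the Tdg null hearts the share was 27.1% (pair a) and 11.9% (pair b), against 0.253% and 0.433% in WT. The Tdg null carcasses stood at 12.1% and 18.2%, the WT carcasses at 2.74% and 2.16%. The single Tdg null liver used reached 9.98%, and the WT livers 0.685% and 0.144%. The libraries themselves differ in the same direction: peaks covered 2.68% to 8.09% of the ungapped genome in Tdg null and 0.0349% to 0.939% in WT, and sequencing depth was not analysed here.

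Gene by gene, each of the 10 windows was covered more in all 4 Tdg null hindbrains than in any WT hindbrain (exact permutation test of 4 against 4, two-sided, p = 0.0286 for each, the smallest this design allows). The same held for 45% of all 37273 genes, and for 77.1% of the 10036 protein-coding genes with a window at least as long as that of Tie1. The count of members is read against that background. After Benjamini-Hochberg adjustment over all genes the exact permutation test gave 0.0634 for every member, and 0% of genes passed 0.05, while 16781 genes were higher and 19 lower in Tdg null at an unadjusted p under 0.05. In heart, where 2 against 2 cannot give a p below 0.333, the groups did not overlap for 10 of 10 members (53.4% of all genes, 84.3% of the protein-coding genes with such long windows). In carcass they did not overlap for 10 of 10 (51.8% of all genes, 81.1% of the protein-coding genes with such long windows).

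**Figure D1:**
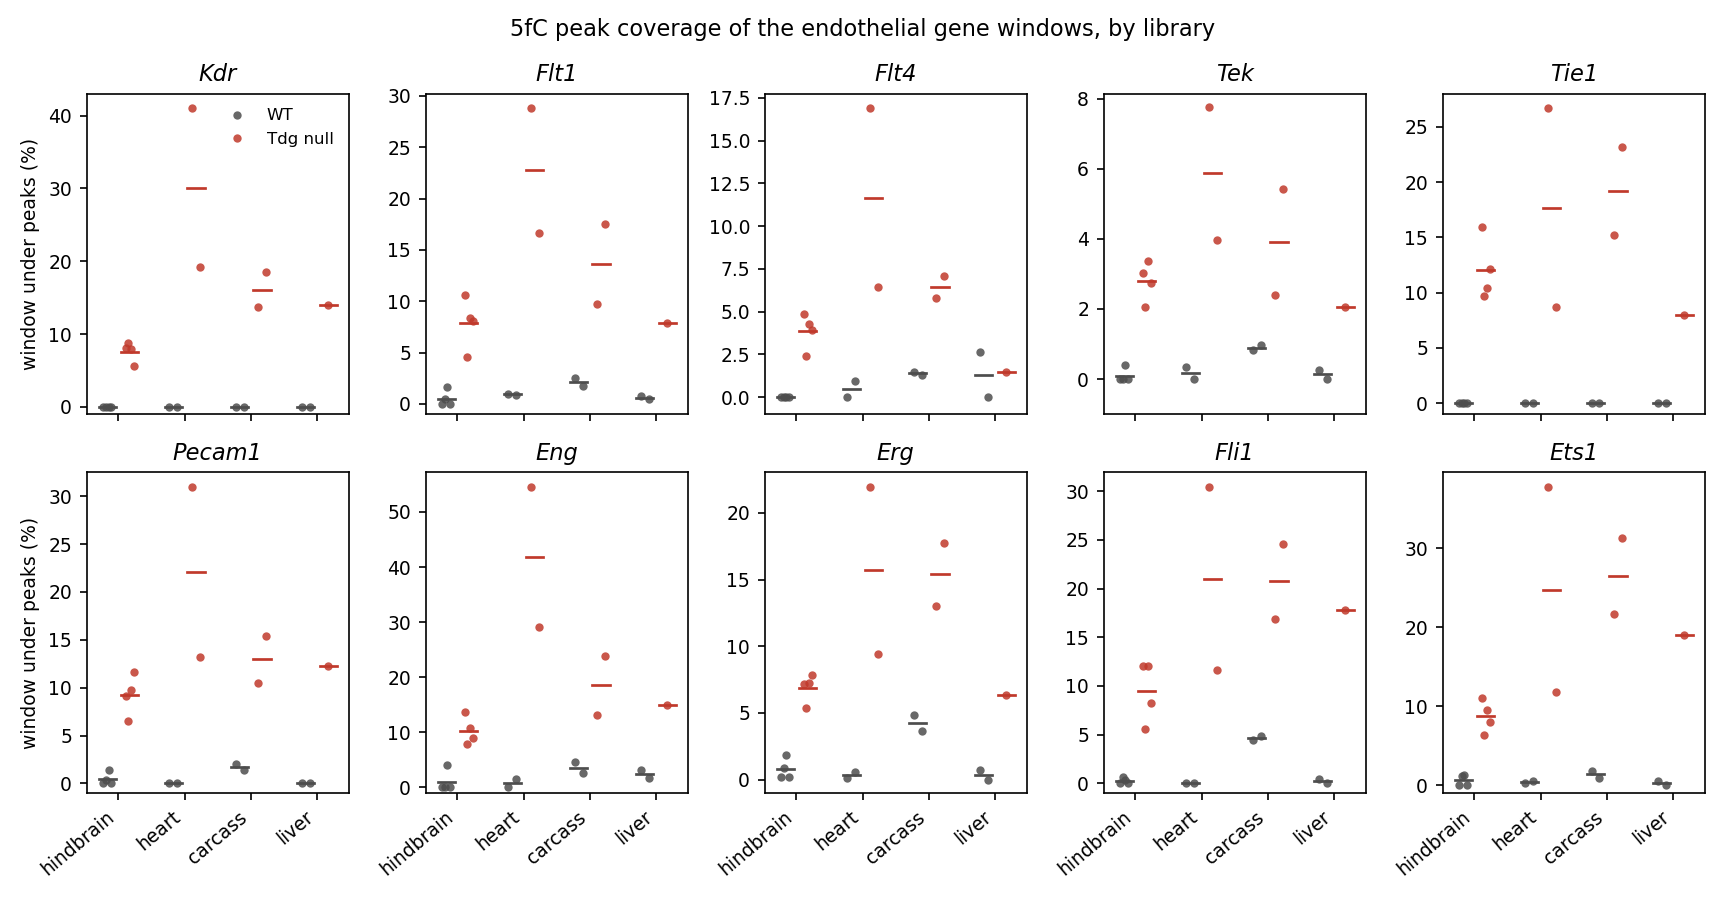
Percent of each gene window under 5fC peaks (vertical axis, own scale per gene) in each library (points; bars are group means) by tissue and genotype. Every Tdg null library of hindbrain, heart and carcass lies above the WT libraries of its tissue for all 10 genes, and Kdr and Tie1 stay at 0 in all 10 WT libraries.

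Of the VEGF receptors, Kdr and Flt1 overlapped in Tdg null hindbrain and carcass, and Flt4 was covered less on average. In hindbrain Flt4 still overlapped Flt1, with 4.86% in litter A against 4.53% for Flt1 in litter O. Kdr, the main signalling receptor for VEGF-A in endothelium, was covered over 8.09%, 8.81%, 7.91% and 5.57% of its window in the Tdg null hindbrains of litters A, O, Q and Z. No WT hindbrain had a peak there, nor did any of the 10 WT libraries. In the Tdg null hearts Kdr coverage was 41.0% and 19.2%, against 13.7% and 18.5% in the carcasses and 14.02% in the liver. The absence of a WT peak over Kdr says that none was called, not that the base was missing.

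Flt1, a VEGF receptor that also acts as a decoy, was covered over 10.6%, 4.53%, 8.38% and 8.10% in the Tdg null hindbrains. In the WT hindbrains of A, O, Q and Z the values were 0%, 0.459%, 1.61% and 0%. Flt1 reached 28.8% and 16.7% in the Tdg null hearts, 9.76% and 17.6% in the carcasses and 7.87% in the liver. WT peaks over Flt1 were found in both hearts (0.975% and 0.917%), both carcasses (2.53% and 1.78%) and both livers (0.745% and 0.459%). Flt1 was the only member with a peak in every WT library outside the hindbrain.

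Flt4 is the receptor for VEGF-C and directs lymphatic growth. The Tdg null hindbrains had 4.86%, 2.43%, 4.30% and 3.93% of the window under peaks, and the WT hindbrains none. The Tdg null hearts had 16.9% and 6.43%, the carcasses 5.80% and 7.11%. In liver the order of the genotypes was not clear: the Tdg null library had 1.496%, between the WT values of 2.62% and 0%. Of the 10 members, Flt4 was the only one without a stretch shared by all 9 Tdg null libraries.

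Of the angiopoietin axis, Tek, also called Tie2, was on average the least and Tie1 the most covered member in Tdg null hindbrain. Tek coverage was 3.02%, 2.06%, 3.36% and 2.75% there, against 0%, 0%, 0.412% and 0% in WT. It stayed low in the Tdg null hearts (7.76% and 3.98%), carcasses (2.40% and 5.42%) and liver (2.06%). Tie1 coverage was 15.95%, 9.72%, 10.4% and 12.1% in the Tdg null hindbrains, with no WT peak in any of the 10 libraries. Its mean of 12.1% ranked above 94.1% of all genes in Tdg null hindbrain, while that of Tek (2.80%) ranked above 56.2%. Tie1 reached 26.7% and 8.68% in the Tdg null hearts, 15.3% and 23.2% in the carcasses and 7.98% in the liver. The Tie1 window also holds the gene Gm12859, whose bases count towards these values.

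Pecam1 was covered over 9.12%, 6.48%, 9.77% and 11.7% in the Tdg null hindbrains and over 0%, 0.376%, 1.41% and 0% in the WT ones. The Tdg null hearts had 31.0% and 13.2%, the carcasses 10.5% and 15.4%, and the liver 12.3%. In WT, Pecam1 had peaks in 4 libraries, 2 hindbrains and both carcasses (2.07% and 1.41%). Eng was the most covered member in heart. Its window was under peaks over 54.5% and 29.1% in the Tdg null hearts, against 0% and 1.52% in the WT hearts. The Tdg null hindbrains had 13.7%, 7.81%, 10.9% and 8.90%, and a single WT hindbrain, that of litter Q, had 4.12%. The Tdg null carcasses had 13.2% and 23.9% and the liver 14.98%. Eng also had peaks in both WT carcasses (4.56% and 2.60%) and both WT livers (3.26% and 1.74%). Part of the Eng window is shared with Ak1 and Fpgs, and peaks there cannot be assigned to Eng alone.

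The ETS factor Erg, which maintains endothelial identity, was the only member with a peak in all 4 WT hindbrains (0.168%, 0.884%, 1.81% and 0.211%), against 7.16%, 5.35%, 7.24% and 7.83% in Tdg null. Erg was also covered in the WT carcasses (4.81% and 3.62%), where the Tdg null carcasses had 13.1% and 17.7%. Its Tdg null hearts had 21.95% and 9.45%, and its Tdg null liver 6.33%. Erg is the longest of the 10 windows, which bears on how often it holds a peak.

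Fli1 was covered over 12.005%, 5.57%, 11.999% and 8.28% in the Tdg null hindbrains and over 0%, 0.619%, 0.31% and 0% in the WT ones. It reached 30.4% and 11.6% in the Tdg null hearts, 16.9% and 24.6% in the carcasses and 17.8% in the liver. Fli1 had 4.49% and 4.88% in the WT carcasses, close to the values of Erg. Ets1, which acts in endothelium and in blood cells, was covered over 11.1%, 6.31%, 9.50% and 8.05% in the Tdg null hindbrains and over 0%, 1.22%, 1.29% and 0% in the WT ones. The Tdg null carcasses of Ets1 had 21.7% and 31.4%, the hearts 37.8% and 11.8% and the liver 19.0%. Ets1 and Fli1 had the highest liver coverage of the 10.

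WT peaks of at least 2 hindbrain litters were found over 5 members, Flt1, Pecam1, Erg, Fli1 and Ets1, and over 8.95% of all genes. These 5 windows run from 106.412 kb (Pecam1) to 237.425 kb (Erg), against a median of 15.384 kb over all genes. The share among genes with windows as long was not computed, so the count and the 8.95% are not alike in length. This count rests on litters O and Q: without the WT hindbrain of O, or without that of Q, only Erg remained, and with peaks of at least 600 bp the count was 2.

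To compare tissues within a genotype, the percent of a window covered was divided by the percent of the ungapped genome covered in the same library. This relative coverage is 1 where a window is covered like the genome at large. By this measure Eng stood highest in Tdg null heart, at 6.73 and 7.99, against 2.42 to 3.80 in the 4 Tdg null hindbrains and 2.46 and 3.16 in the carcasses. Kdr came next in heart, at 5.06 and 5.28, against 1.52 to 3.29 in hindbrain and 2.54 and 2.45 in carcass. Mean relative coverage in heart was 2.41 times that in hindbrain for Eng and 2.22 times for Kdr. Tek was below 1 in 8 of the 9 Tdg null libraries, with a range of 0.446 to 1.09, and Flt4 ranged from 0.493 to 2.09.

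In all, 8 of 10 members had higher relative coverage in both Tdg null hearts than in any Tdg null hindbrain (21.6% of all genes, and 36.7% of protein-coding genes with windows as long as these). The exceptions were Tie1 and Fli1, whose groups overlapped. None was lower in heart (14% of all genes), but Tie1 was lower without overlap with the gene body only, where its log2 ratio was -1.36 in place of -0.33, with 10 kb flanks (-0.51) and with peaks of at least 600 bp (-0.60). With 4 against 2 libraries an exact test cannot go below p = 0.0667, so the comparison is given as a count. When the expected coverage was taken from all gene windows in place of the genome, which lowered the log2 ratio of heart to hindbrain by 0.22 for the median gene, 4 members remained, Kdr, Flt1, Flt4 and Eng, and 17.9% of all genes were higher. Tie1 was then lower in heart, as were 17% of all genes. For Tek, Pecam1, Erg and Ets1 the groups then overlapped, with log2 ratios of 0.09, 0.23, 0.16 and 0.40, against 0.31, 0.45, 0.38 and 0.61 relative to the genome.

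**Figure D2:**
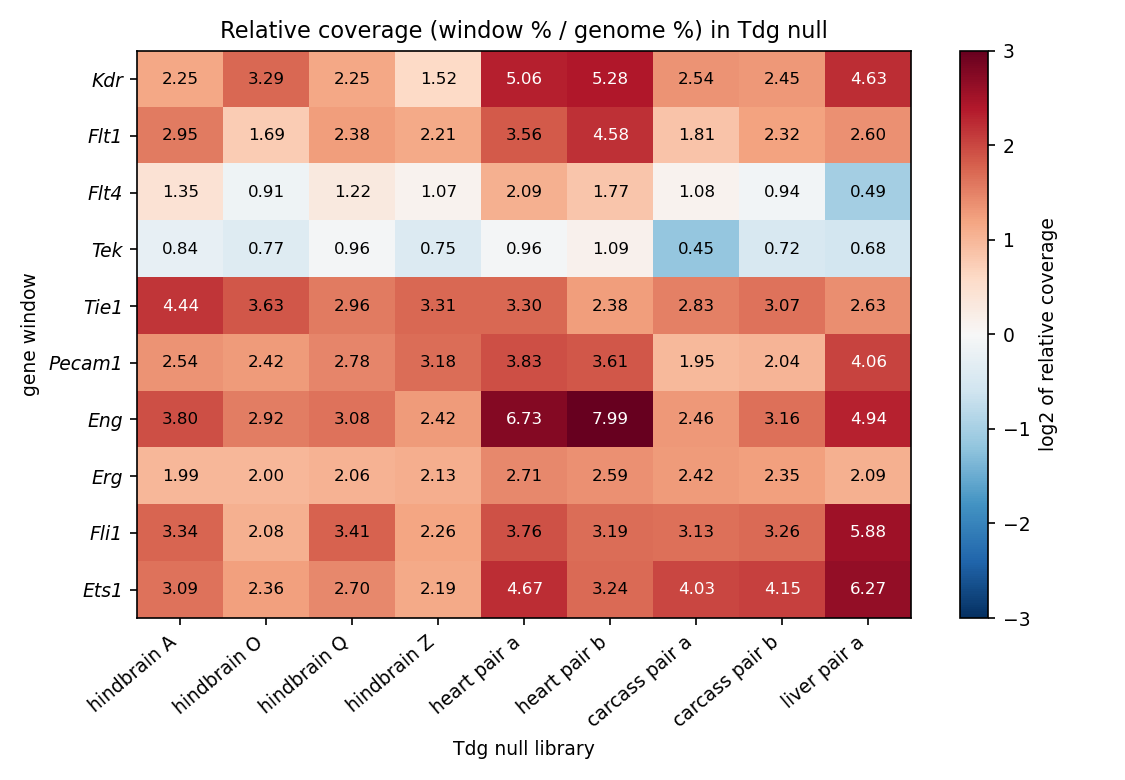
Relative coverage (percent of the window over percent of the genome under peaks) of each gene window (rows) in the 9 Tdg null libraries (columns); colour is its log2 and the printed value is linear. Eng and Kdr are highest in both hearts, Ets1 and Fli1 are highest in the liver (6.27 and 5.88), and Tek is the lowest in 8 of the 9 libraries.

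**Figure D3:**
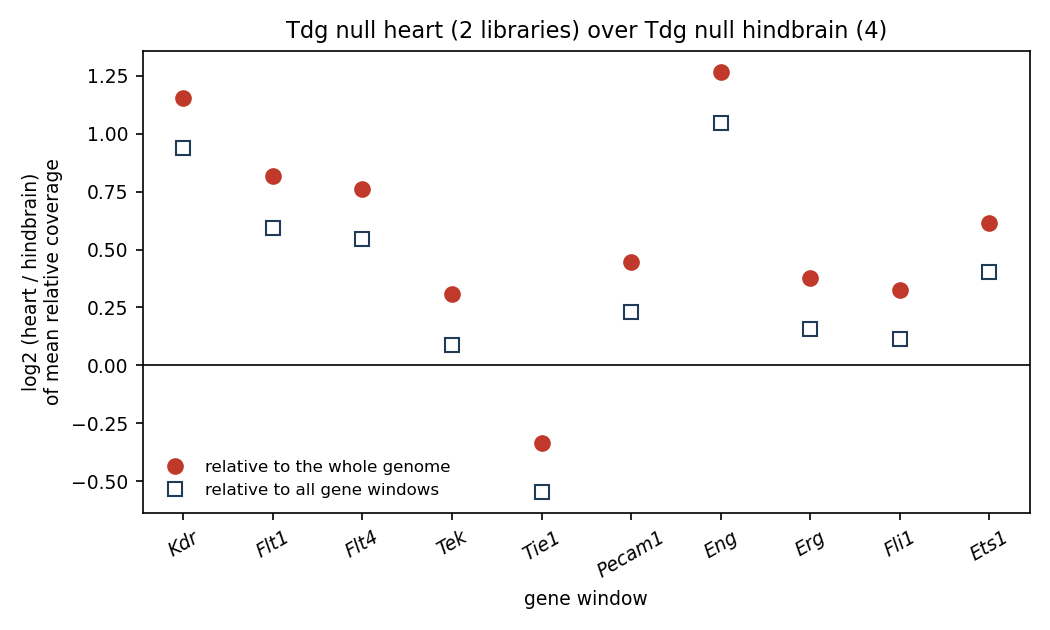
The log2 ratio of mean relative coverage in Tdg null heart over Tdg null hindbrain for each gene window, with coverage relative to the whole genome (circles) or to all gene windows (squares). Eng (1.27 and 1.05) and Kdr (1.15 and 0.94) are highest under both references, and Tie1 lies below 0 under both.

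Between carcass and hindbrain, members went both ways. Erg (2.42 and 2.35 in carcass, 1.99 to 2.13 in hindbrain) and Ets1 (4.03 and 4.15, against 2.19 to 3.09) were higher in both Tdg null carcasses, 2 of 10 members (8.16% of all genes). Tek and Pecam1 were lower in carcass, also 2 of 10 (16.2% of all genes). Among protein-coding genes with windows as long, 13% were higher and 22.4% lower in carcass. Heart exceeded carcass for 7 members, Kdr, Flt1, Flt4, Tek, Pecam1, Eng and Erg (31.3% of all genes, 49.9% of protein-coding genes with windows as long), and fell below it for none (16.3%). Against all gene windows, which lowered that log2 ratio by 0.24 for the median gene, 6 of the 7 remained and Erg did not, with 26.9% of all genes higher and 19.7% lower. In the single Tdg null liver, Ets1 (6.27), Fli1 (5.88), Eng (4.94), Kdr (4.63) and Pecam1 (4.06) were above 4, and Flt4 (0.493) and Tek (0.679) were below 1.

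The same measure puts the genotype difference in another light. Relative to the genome coverage of each library, only Kdr, Flt4 and Tie1 were higher in all Tdg null hindbrains than in any WT hindbrain, 3 of 10 members (30.6% of all genes), and these 3 had no WT hindbrain peak. Erg went the other way: its relative coverage was 4.41, 5.01, 3.86 and 6.03 in WT and 1.99 to 2.13 in Tdg null (0.663% of all genes were lower in Tdg null). A gene can be called lower only with a peak in all 4 WT hindbrains, and those of A and Z held 1563 peaks each, so few genes could qualify. In litter A 1 peak of 400 bp gave the 4.41, and in Z 1 of 500 bp gave the 6.03. In heart 4 members, Kdr, Tie1, Pecam1 and Fli1, were higher in Tdg null (44.8% of all genes), and all 4 had no WT heart peak, so any Tdg null peak places them higher. Flt1 was lower (1.75%). In carcass 3 were higher, Kdr and Tie1 with no WT peak and Ets1 (31.4%), and 5 lower, Flt4, Tek, Eng, Erg and Fli1 (10.1%). WT values rest on few peaks, 1 in Erg in each of litters A and Z, and this comparison was chosen after the data were seen.

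Within the windows, the parts common to all tissues lay mainly in introns, which make up most of the windows (266.364 kb of first introns and 684.489 kb of later ones). Bases under peaks of all 9 Tdg null libraries added up to 15105, which is 1.36% of the 10 windows, against 0.453% of all gene windows and 0.329% of the genome. They form 20 stretches in 9 members, 14 mainly in introns after the first, 5 in first introns and 1 of 5 bp at the edge of the Tie1 window. None was centred within 2 kb of the gene start, and 9 overlapped a WT peak. The longest were 1800 bp each. The Eng stretch, chr2:32509101-32510900, lies in the first intron 7.88 kb from the gene start and holds 34 CpG sites. The Fli1 stretch, chr9:32326201-32328000, lies in the first intron 21.9 kb from the start and holds 40. The Ets1 stretch of 1200 bp (chr9:32538701-32539900) and the Kdr stretch of 1100 bp (chr5:76334801-76335900) lie in later introns, 95.5 kb and 39.1 kb from the start. The Tek stretch of 600 bp (chr4:94419101-94419700) is in the first intron, 13.4 kb from the start, and contains the Tek sequence given above.

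In the other members the longest common stretch was 1000 bp in Flt1 (chr5:148492601-148493600), 900 bp in Pecam1 (chr11:106520701-106521600), 700 bp in Erg (chr16:95597801-95598500) and 500 bp in Tie1 (chr4:118149701-118150200). In sequence, the common stretches held a median of 6 CpG sites per 300 bp, against 3 in tiles of the same length over the member windows and 7 in the 12506 such stretches of the whole genome. The letters CCGGAA, a core of ETS sites that contains a CpG, were searched on both strands of the central 300 bases. They occurred in 1 of 20 common stretches of the members (5%), in 7.33% of those of the genome, in 3.22% of member window tiles and in 2.26% of genome tiles. That match is in Eng and is a description only.

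**Figure D4:**
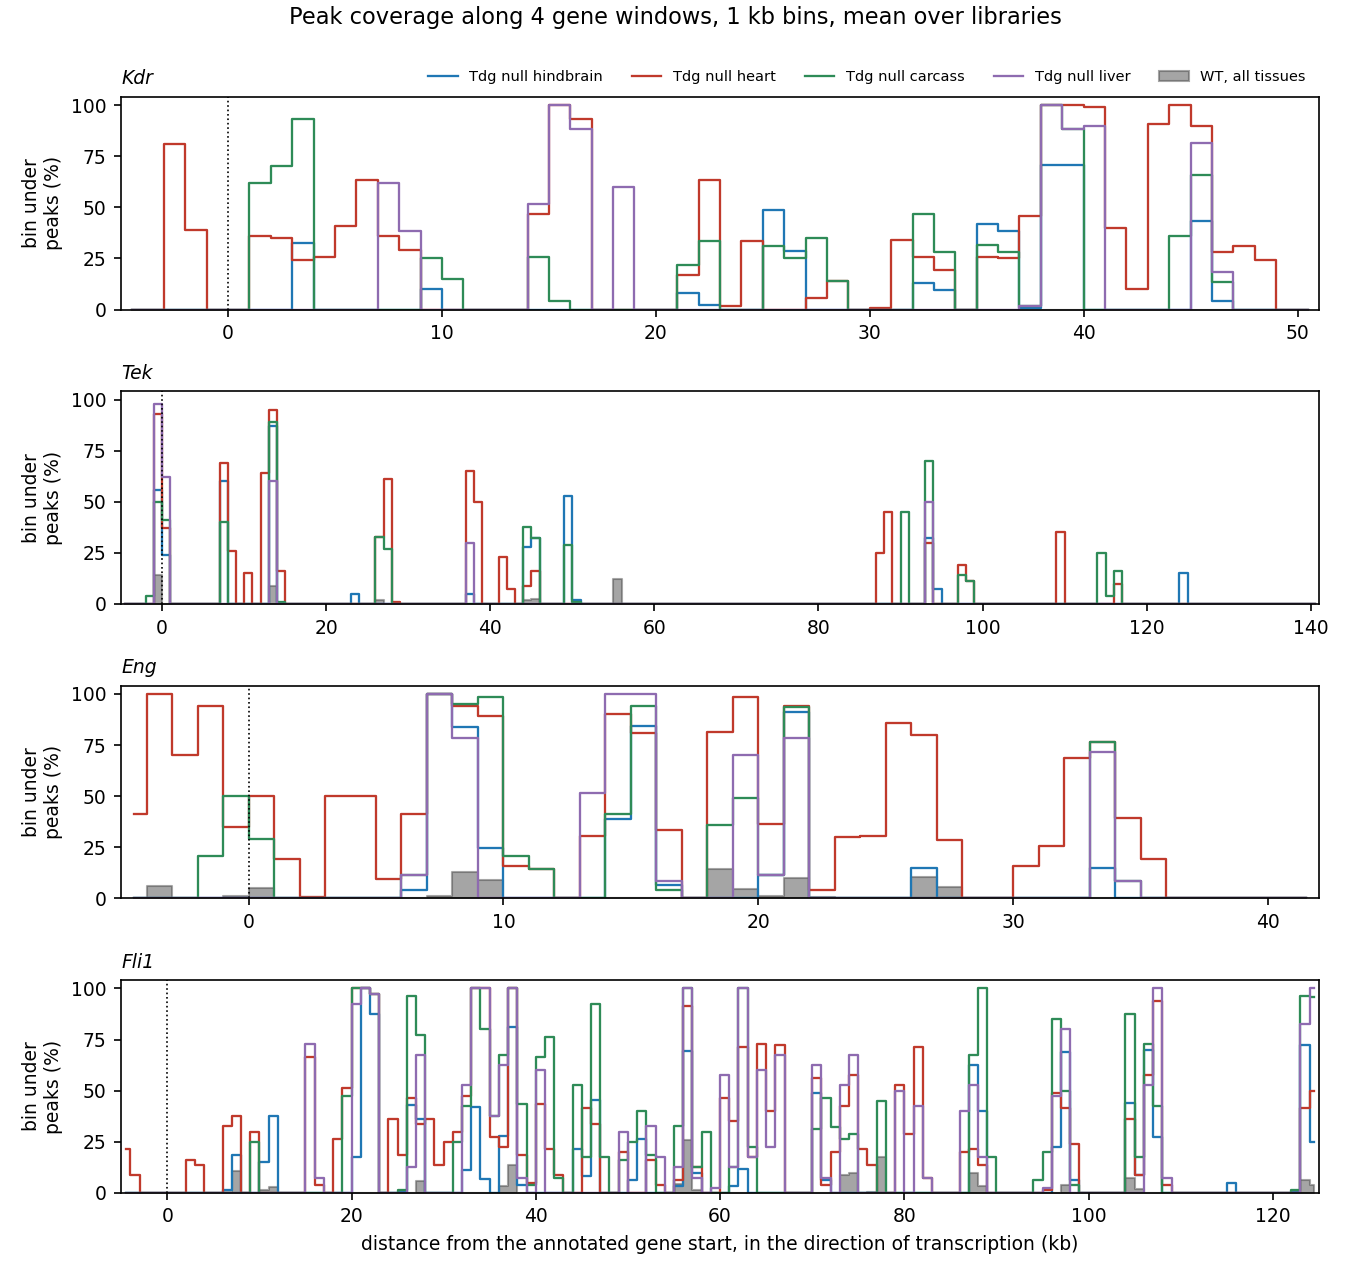
Percent of each 1 kb bin under peaks along the windows of Kdr, Tek, Eng and Fli1, by distance from the gene start in kb (dotted line at 0), as the mean of the Tdg null libraries of each tissue (lines) and of the 10 WT libraries (grey). The common intronic stretches stand out in all tissues, the bins before the start are covered in heart and, nearest the start, in carcass for Eng, and the last bin before it in all tissues for Tek, and WT coverage is 0 along Kdr.

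The 1000 bp before the gene start differed between members. That of Tek (chr4:94404980-94405979), with 12 CpG sites, had a peak in 8 of 9 Tdg null libraries, covering a median of 67.9%, and in 2 of 10 WT libraries, both carcasses. That of Pecam1, with 16 CpG sites, had a peak in 6 Tdg null libraries. Those of Tie1, Eng and Erg had one in 2 Tdg null libraries each. Those of Kdr, Flt1, Flt4, Fli1 and Ets1 had none in any library, and 3 of these 5 are the most CpG-rich of the 10, with 40 (Kdr), 70 (Flt1) and 36 (Fli1) sites. Flt4 and Ets1 have 15 and 11 sites, about as few as Tek and Pecam1. Among all 22367 protein-coding genes, 65.4% had no Tdg null peak there and 3.09% had one in at least 8 libraries.

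**Figure D5:**
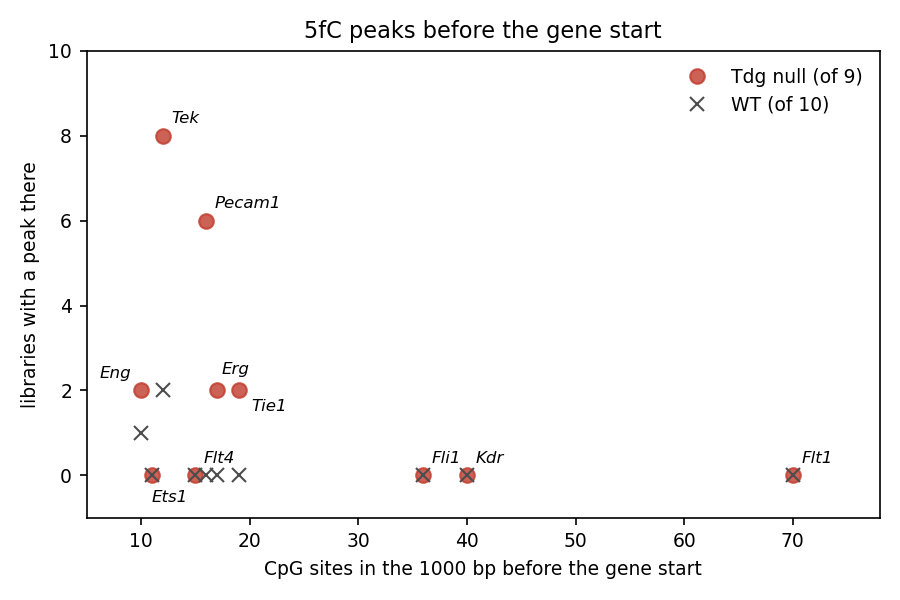
Number of libraries with a peak in the 1000 bp before the gene start (vertical axis) against the number of CpG sites there (horizontal axis), for Tdg null (circles, of 9) and WT (crosses, of 10); each point is a gene. Tek (8 libraries) and Pecam1 (6) stand apart, and Kdr, Fli1 and Flt1, with 36 to 70 sites, are at 0. Flt4 (15 sites) and Ets1 (11) are also at 0.

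Exons, first introns and later introns were covered at similar rates over the 10 windows together, with means of 13.7%, 12.3% and 12.4% in the 9 Tdg null libraries (SD 7.81, 6.69 and 6.82). The 5 kb flanks were lower, at 9.06% (SD 6.62), and below the whole windows in 9 of 9 libraries. CpG-rich stretches, runs of 200 bp or more with at least 50% GC and an observed over expected CpG ratio above 0.6, were higher, at 16.9% (SD 7.76), and above the whole windows in 9 of 9 Tdg null and 9 of 10 WT libraries. Their coverage was a median of 1.41 times that of the whole windows in Tdg null and 3.93 times in WT, where the mean was 2.60% (SD 2.15) against 0.82% (SD 0.935). Single genes departed from this. CpG-rich stretches were covered less than the window in Tdg null for Kdr (14.3% against 15.2%), Flt4 (5.30% against 5.92%), Eng (10.9% against 19.7%) and Fli1 (8.69% against 15.5%). For the other members they were covered more. Flt1 and Erg hold 15.355 kb and 12.886 kb of the 56.087 kb of CpG-rich stretches and so weigh most in the sum. The same was not computed for other genes. The exons of Kdr were covered over 48.6% on average in Tdg null heart against 5.61% in hindbrain, and its first intron over 61.8% in carcass against 26.3% in heart and 0% in liver. Exons of Fli1 had no peak in Tdg null hindbrain or carcass and 15.5% in heart.

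Stretches under peaks of WT libraries of at least 2 embryos and of at least 2 Tdg null libraries numbered 32 in 8 members: 11 in Erg, 5 each in Flt1 and Fli1, 3 each in Eng and Ets1, 2 each in Tek and Pecam1 and 1 in Flt4. The share of all genes with such a stretch was not computed, so these counts are a description only. Peaks of the WT libraries covered 51346 bases of the windows, of which 95.5% were also under a Tdg null peak, against 88.8% over all gene windows.

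Tissue sharing was not uniform. Of the bases under peaks of both Tdg null hearts, 61.4% had no peak in any Tdg null hindbrain, against 61.5% over all gene windows. Of the bases under peaks of at least 2 Tdg null hindbrains, 22.7% had no peak in either heart, against 40.1% over all gene windows. For Eng no such base was outside heart, and for Erg 44.6% were. Liver bases lay under a heart peak for 92.7% (85.2% over all gene windows), with the liver and hearts sharing embryos. The set-aside Tdg null liver had 1 peak in these windows, over 0.229% of Flt1.

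A list of 53 other endothelial and vascular genes was chosen for what they do, with earlier results of these data known. Of these, 37 were covered more in all Tdg null hindbrains than in any WT hindbrain (45% of all genes), 47 in heart (53.4%) and 43 in carcass (51.8%), and none less. The median window of the list is 28.9 kb, and among protein-coding genes with windows at least as long as that of Tie1 the shares were 77.1%, 84.3% and 81.1%. Relative coverage was higher in Tdg null heart than in hindbrain for 26 (21.6% of all genes) and lower for 2 (14%). It was higher in carcass than in hindbrain for 9 (8.16%) and lower for 11 (16.2%), and higher in heart than in carcass for 29 (31.3%) and lower for 4 (16.3%). Among the protein-coding genes with such long windows, heart was higher than hindbrain for 36.7% and lower for 18.2%. Carcass was higher than hindbrain for 13% of them and lower for 22.4%, and heart higher than carcass for 49.9% and lower for 20.9%. Against all gene windows, heart was higher than hindbrain for 18 of the list (17.9% of all genes) and lower for 5 (17%), and heart was higher than carcass for 28 (26.9%) and lower for 8 (19.7%). The median gene of the list had 8.27% of its window covered over the 9 Tdg null libraries, against 13.9% for the 10 members and 2.95% for all genes. The most covered were Angpt2, an angiopoietin that antagonises Tek signalling in many settings (23.1%), and the ETS factors Elk3 (22.7%) and Etv6 (22.5%). Angpt2 coverage was 28.2% and 48.9% in the 2 Tdg null hearts, 34.3% and 40.4% in the carcasses and 7.67% to 12.9% in the hindbrains. The least covered were Sox17, Sox18 and Tal1, transcription factors of early endothelium and blood, with no peak in any Tdg null library over windows of 15486, 11805 and 25330 bp. The 3 genes whose log2 relative coverage over the 9 Tdg null libraries was most like the mean of the 10 members were Elf1 (Pearson r = 0.84), Gja5 (r = 0.83) and Etv2 (r = 0.83). These libraries share embryos and tissues, and Etv2 had peaks in the hearts only (2.37% and 6.31%).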

How the data were processed

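The deposited files list where each 5fC peak begins and ends, as positions without any other value. The authors trimmed the reads with Trim Galore, aligned them to NCBIM37 (mm9) with Bowtie2 and found peaks library by library with MACS as implemented in SeqMonk (cutoff 1e-05 on the p value, fragments of 200 bp). The peak files used hold no read count, height or score. The reads were not analysed here, so no depth or interval that needs it is given, and a deeper or better enriched library calls more peaks. Positions were read as 1-based on a 100 bp grid, and overlapping peaks of a library were joined.

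Gene windows came from the GENCODE annotation of NCBIM37. Promoters are the 1000 bp before the gene start, and first introns those of the longest protein-coding transcript. For each library the bases under peaks were divided by the window length, and for relative coverage by the share of the ungapped genome under peaks. Genotypes were compared in hindbrain by a two-sided exact permutation test over 4 and 4 libraries in all 37273 genes, with Benjamini-Hochberg adjustment over them. Other comparisons were called where the groups did not overlap. Correlations used a pseudocount of 100 bp. Genotypes were paired by litter in the study. In hindbrain, the deviations of the 2 libraries of a litter from their group means correlated at r = -0.07, 0.07, 0.06 and 0.06 over 7718 genes for litters A, O, Q and Z.

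All 10 members are named. Of the 53 listed genes the text names the 3 most and 3 least covered and the 3 most like the members. Sequences are the 300 bases at the centre of stretches named by rule, at most 6, by the number of libraries whose peaks overlap them. Those overlapping exons or another printed one were passed over, and the tie at 11 libraries went to a member not yet shown. The members, lists and tests were chosen with earlier results of these data known. Scripts were tested on simulated peaks. The scripts ran under Python 3.11.15 (pandas 2.3.3, numpy 2.4.6, pysam 0.24.0), and matplotlib 3.10.9 drew the figures.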

Additional observations from a re-analysis of the deposited data

Results flagged for a closer look

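Of 20 groups of 4 hindbrain libraries (10 members in each genotype), 2 held a library whose gap to the nearest of the others was above Dixon's 95% critical value. Both are the WT hindbrain of litter Q, with 0.412% of the Tek window and 4.12% of the Eng window under peaks, where the other 3 WT hindbrains had none. With the other 3 at 0 any single value passes this criterion, so the usual rate of about 1 in 20 groups by chance does not apply here. That library had 21606 peaks, against 1563 to 8989 in the other WT hindbrains. The part of that number in these values was not tested.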

How the results depend on the processing

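The counts of members covered more in Tdg null than in WT stayed at 10 in hindbrain, heart and carcass with the gene body only, 10 kb flanks, peaks of at least 600 bp, peaks under 200 bp apart merged, numbers of peaks in place of bases, and each library left out in turn. On relative coverage they were 3, 4 and 3. In the paired analysis by litter (replicate block) all 10 members were higher in 4 of 4 litters, but the exact sign-flip test cannot go below p = 0.125, so 0 were called. Adjusted over protein-coding genes alone, the smallest exact permutation p was 0.0519. Heart over hindbrain fell from 8 to 4 members with the expectation from all gene windows, to 6 with peaks of at least 600 bp and to 7 by numbers of peaks. Carcass over hindbrain fell from 2 to 1 by numbers of peaks. Leaving out libraries gave 8 to 9 members for heart over hindbrain, 2 to 3 for carcass over hindbrain and 7 to 10 for heart over carcass. The count of members with WT peaks in at least 2 hindbrain litters was 2 with peaks of at least 600 bp and 1 to 5 without single libraries. The bases common to all Tdg null libraries, 15105, ranged from 15105 to 22105 without single libraries and were 0 with the set-aside liver included. The median hindbrain coverage of 8.32% ranged from 7.69% to 9.29% without single libraries and was 7.68% with peaks of at least 600 bp. With peaks of at least 600 bp the heart and hindbrain values of Tek and Ets1 overlapped. Under the 4 settings of window and peaks, 40 of 40 hindbrain differences between genotypes kept their direction. Depth, not analysed here, limits all absolute comparisons, and 2 libraries per group limit those of heart and carcass.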
